A study of Mus musculus with 8 samples.

Results

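Polycomb repressive complex PRC1.6 is a chromatin complex that silences genes of the germ line in mouse embryonic stem (ES) cells. This account covers 10 genes of the complex: Mga, Max, E2f6, Tfdp1, L3mbtl2, Pcgf6, Rnf2, Ring1, Rybp and Wdr5. A probe set, the group of array oligonucleotides that reports 1 transcript, was counted for a gene if the platform annotation gave it that symbol alone. This found 21 probe sets for 9 of the 10 genes, among 18193 genes annotated in this way on the array. The 2 probe sets that cover Rybp were annotated to it together with its pseudogene, so Rybp has no value here.

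MGA binds DNA as a partner of MAX at E-box sequences, and E2F6 binds E2F sites together with TFDP1. Both anchor the complex at germ cell and meiosis promoters, where the RING-type enzymes RNF2 and RING1 can place ubiquitin on histone H2A. PCGF6 and L3MBTL2 are defining subunits of this version of PRC1, and its loss in mouse ES cells is known to raise germ cell genes. None of these roles was measured here, since the arrays report RNA only.

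Total RNA of mouse ES cells grown on feeder plates was hybridised to Affymetrix arrays, 8 in all. J1 ES cells (strain 129S4/SvJae) received control shRNA or Rif1 shRNA by lipofection and were collected after 48 h. The F1 ES cells (C57BL/6xC3H) carried a stable Rif1 shRNA or a control shRNA and were taken at passage 16. Rif1 encodes a chromatin protein that acts in replication timing, telomere protection and double-strand break repair. Each of the 4 groups had 2 arrays, which the labels do not tie to separate cultures, and each p-value here covers just the spread of these arrays, part of which may be technical. The labels leave 3 points unsettled: the F1 controls carry the name of the knockdown line as their cell line, the treatment field speaks of virus or siRNA, and whether an F1 group is 1 clone is not given.

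The labels were checked on Rif1 itself. Its brightest probe set had deposited signals of 2614 and 3222 in J1 controls and of 1260 and 1297 with Rif1 shRNA. After the normalization given below, 47.2% of the control level was left. In F1 the deposited signals were 4231 and 4247 in controls and 1339 and 1407 in knockdown cells, and 29.9% was left after normalization. The median probe set signal per array was 61.0 to 69.3, and precision is limited by having 2 arrays a group. All 8 stem cell markers of a marker list gave signals of 676 or more on every array. Other features moved with the comparisons. Of 18 feeder fibroblast markers, 15 rose and 0 fell in the F1 knockdown by the threshold given below, against 10.6% and 8.2% of all genes. Their summed signal was 18168 to 18461 in F1 controls against 35341 to 36966 in knockdown cells. In J1, 0 rose and 5 fell, against 1.86% and 2.17% of all genes. The sums were 13440 to 14375 in J1 controls and 12441 to 12672 with Rif1 shRNA. No marker was at 0 on any array, and the lowest was Prrx1 at 23.6. Of the 8 stem cell markers 4 fell in F1 and 0 rose, against 8.2% and 10.6% of all genes. The Y-linked gene Eif2s3y had signals of 19.9 and 21.4 in F1 controls, 911 and 960 in F1 knockdown cells and 780 to 901 on J1 arrays, so differences between the F1 lines and effects of the hairpin cannot be told apart. Actin probe sets, whose ratio of 3' over 5' signal is a sign of RNA quality, gave 2.61 to 2.71 in J1 controls, 2.17 to 2.18 in J1 Rif1 shRNA arrays and 1.33 to 1.41 in F1. The part of these features in the results below was not tested. In bulk RNA, a smaller share of cells with a transcript and less transcript per cell cannot be told apart.

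The main question was whether the genes of the repressor complex changed with Rif1. At 48 h in J1 no PRC1.6 gene passed the threshold. In stable F1 knockdown cells Mga was lower and E2f6 higher at their brightest probe sets. A Wdr5 probe set, 1 of 2, was lower, L3mbtl2 and Rnf2 lay just inside the threshold, and no probe set of Max, Tfdp1, Pcgf6 or Ring1 passed in the fit to all 8 arrays. The threshold was a limma adjusted p under 0.05 over 31605 probe sets that rose above the 40th percentile of the array on at least 2 arrays. Of the 21 probe sets of the complex 20 met this filter, the other being a dim Mga probe set with signals of 20.7 to 34.9. Fold changes are given on the log2(signal + 18) scale after quantile normalization, which understates the change of dim genes.

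In J1, 0 of 20 probe sets passed with limma, against 3.18% of all probe sets. An unadjusted p under 0.05 was reached by 2 of the 20, against 17.1% of all. In a fit to the 4 J1 arrays alone, 0 of 20 passed, against 0.886% of all, and 1 had an unadjusted p under 0.05, against 10.8% of all. In F1, 5 of 20 passed, against 15.1% of all probe sets. Of these 2 were higher and 3 lower, against 8.28% and 6.81%. Counted once per gene at the brightest probe set, 4 of 9 passed in F1, against 18.8% of 14714 genes. With only the 4 F1 arrays, 9 of 20 passed, against 25.7% of all probe sets, with 2 higher and 7 lower against 13% and 12.7%. The 7 lower included all 4 tested Mga probe sets, and probe sets of 1 gene are not independent counts. The median log2 fold change of the 20 was -0.03 in J1 and -0.11 in F1, beside -0.001 and -0.03 for all probe sets. For the F1 effect minus the J1 effect, 1 of 20 passed, against 8.37% of all. At the brightest probe sets 0 of 9 genes passed this test with limma, against 10.6% of all genes. An unadjusted p under 0.05 was reached by 3 of the 9, against 25.9% of all genes.

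Before any test, the deposited signals of the groups of 2 did not overlap at 8 of 20 probe sets in J1, against 39.5% of all, with 3 higher and 5 lower against 20.6% and 19%. In F1 they did not overlap at 12 of 20, against 63.2% of all, with 3 higher and 9 lower against 32.6% and 30.6%. These 9 again included all 4 tested Mga probe sets. A gap between groups of 2 was therefore common, and it is given below as a description.

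**Figure D1:**
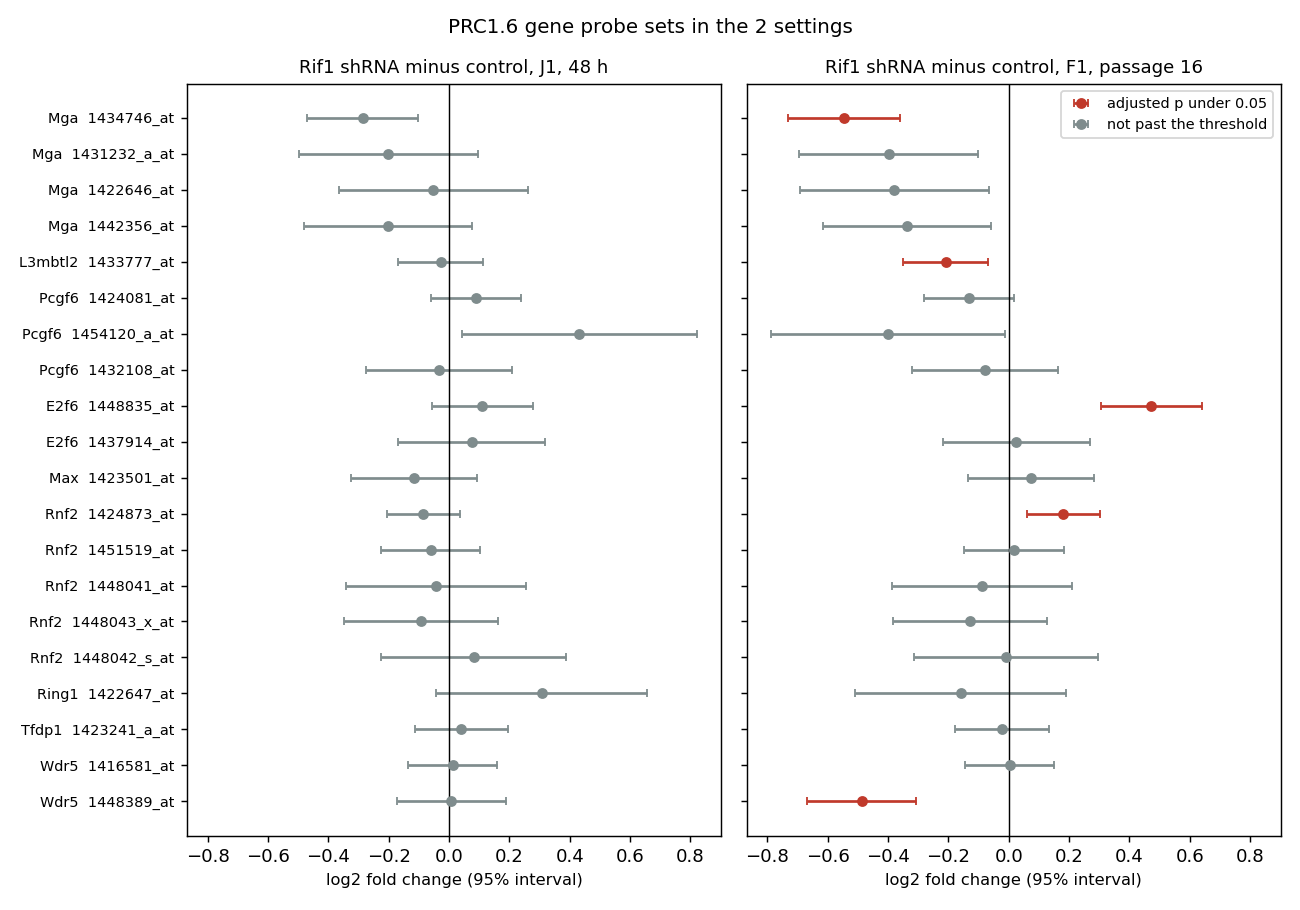
Log2 fold change of each of the 20 tested probe sets, Rif1 shRNA minus control, with its 95% interval from limma, in J1 at 48 h (left) and F1 at passage 16 (right). Red points passed an adjusted p under 0.05: none of 20 in J1, and in F1 Mga, L3mbtl2 and 1 Wdr5 probe set below 0 and E2f6 and 1 Rnf2 probe set above 0.

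Mga encodes the large scaffold that carries both a T-box domain and the helix-loop-helix domain that pairs with MAX. Its brightest probe set (1434746_at) had deposited signals of 656 and 703 in F1 controls and of 447 and 489 in F1 knockdown cells. Both knockdown arrays lay below both controls. After normalization Mga fell to 68.5% of control (-0.55 on the log2 scale, SE 0.08, limma adjusted p = 0.00124). It passed in 18 of 18 alternative settings, with values from -0.60 to -0.49. In J1 the same probe set gave 394 and 443 in controls and 329 and 349 with Rif1 shRNA. The groups again did not overlap, but the log2 fold change of -0.29 (95% interval -0.47 to -0.10) did not pass (limma adjusted p = 0.0986). The change in F1 was not shown to differ from that in J1 (difference -0.26, limma adjusted p = 0.229).

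The other 3 tested Mga probe sets gave estimates below 0 in both settings. In F1 their log2 fold changes were -0.40 (1431232_a_at), -0.38 (1422646_at) and -0.34 (1442356_at), with limma adjusted p of 0.0744, 0.107 and 0.107. At each of them both F1 knockdown signals were lower than both control signals. The fit to the 4 F1 arrays called 25.7% of all probe sets, and all 3 passed in it (limma adjusted p = 0.0104, 0.0291 and 0.0338). Over the alternatives they passed in 4 of 18, 4 of 18 and 2 of 17. In J1 they gave -0.20, -0.05 and -0.20, and the arrays overlapped at 2 of the 3.

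Max, whose product pairs with MGA and also with the MYC proteins, was reported by 1 probe set. Its signals were 171 and 193 in J1 controls, 166 and 175 with Rif1 shRNA, 415 and 413 in F1 controls and 476 and 447 in F1 knockdown cells. The F1 arrays did not overlap, but the log2 fold change of 0.07 (95% interval -0.13 to 0.28) did not pass (limma adjusted p = 0.702). In J1 it was -0.12 (95% interval -0.32 to 0.09, limma adjusted p = 0.586).

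E2f6, which encodes an E2F protein without an activation domain, moved the other way from Mga. Its brightest probe set (1448835_at) had signals of 516 and 514 in F1 controls and of 742 and 771 in F1 knockdown cells. The groups lay far apart compared with the spread within each. E2f6 rose 1.39-fold (log2 fold change 0.47, SE 0.08, limma adjusted p = 0.00159), and it passed in 18 of 18 alternatives with values from 0.43 to 0.54. In J1 the signals were 426 and 400 in controls and 429 and 450 with Rif1 shRNA, a narrow gap with a log2 fold change of 0.11 (limma adjusted p = 0.508). The difference between the settings was 0.36 (95% interval 0.13 to 0.60) and did not pass (limma adjusted p = 0.0638). It passed in 4 of 17 alternatives, among them values as deposited (0.45, limma adjusted p = 0.0142). The second E2f6 probe set (1437914_at) was dim, at 43.1 to 57.1 on the 8 arrays, and gave 0.02 in F1 (limma adjusted p = 0.926). Tfdp1, the partner through which E2F6 binds DNA, had 3637 and 3210 in F1 controls against 3423 and 3348 in knockdown cells. Its log2 fold change was -0.02 in F1 and 0.04 in J1 (95% intervals -0.18 to 0.13 and -0.11 to 0.20), and the arrays overlapped in both.

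**Figure D2:**
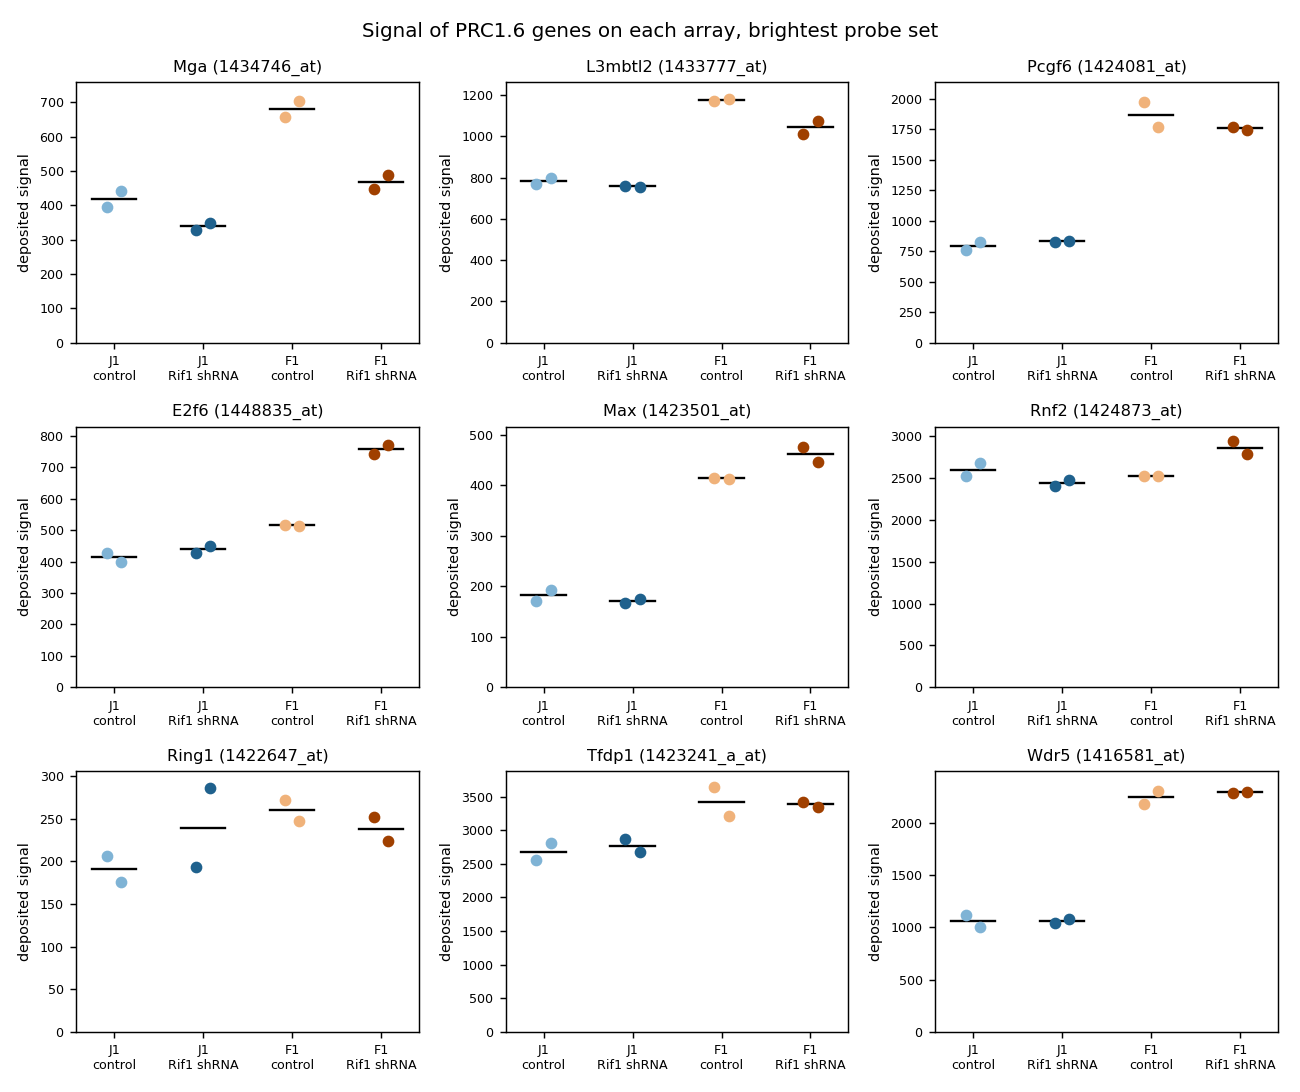
Deposited signal (linear scale from 0) of the 9 measured genes at their brightest probe set on each of the 8 arrays, with points for arrays and a line at the mean of each group of 2. In F1, Mga and L3mbtl2 were lower and E2f6, Rnf2 and Max higher in both Rif1 shRNA arrays than in both controls. The F1 arrays of Pcgf6, Ring1, Tfdp1 and Wdr5 overlapped. Of all probe sets, 63.2% did not overlap in F1.

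The promoter of E2f6 is shown because it is the subunit gene with the clearest rise and because E2F sites are known to act on the promoters of E2F genes. The 250 bases before its annotated start were searched on both strands for the E-box CACGTG, which reads the same on both, and for the E2F core TCCCGC, which reads GCGGGA on the other strand. Matches are in capitals, and the letters come from RefSeq.
E2f6 (GRCm38.p6, chr12:16810715-16810964, plus strand): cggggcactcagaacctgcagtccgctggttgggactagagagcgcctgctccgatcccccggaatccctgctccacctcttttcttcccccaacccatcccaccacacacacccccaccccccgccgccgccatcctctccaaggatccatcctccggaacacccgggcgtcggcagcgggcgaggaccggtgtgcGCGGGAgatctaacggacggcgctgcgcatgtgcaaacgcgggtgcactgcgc
It held 1 E2F match, starting 53 bases before the start, and 0 E-boxes. Of 9 subunit genes with a promoter in the table, 3 held an E2F match (E2f6, Rnf2 and Tfdp1) and 1 an E-box (Tfdp1), against 16.9% and 6.05% of 27025 genes at their first listed promoter. A match says only that the letters are present.

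L3mbtl2, which encodes a chromatin-compacting protein of the malignant brain tumor repeat family, had signals of 1171 and 1180 in F1 controls and of 1010 and 1075 in knockdown cells. It fell to 86.5% of control (-0.21 on the log2 scale, SE 0.06, limma adjusted p = 0.0492). This call rested on the settings: it was lost in 12 of 18 alternatives, among them the omission of any single F1 array (limma adjusted p = 0.120 to 0.406). In J1 the signals were 770 and 800 in controls and 761 and 755 with Rif1 shRNA, a log2 fold change of -0.03 (95% interval -0.17 to 0.11).

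Pcgf6, the PCGF protein that defines the complex, did not pass at any of its 3 probe sets in the fit to all 8 arrays. The brightest (1424081_at) had 1973 and 1768 in F1 controls and 1771 and 1746 in knockdown cells, with overlapping arrays and a log2 fold change of -0.13 (95% interval -0.28 to 0.02, limma adjusted p = 0.247). In J1 it had 758 and 823 in controls and 827 and 834 with Rif1 shRNA, a log2 fold change of 0.09 (limma adjusted p = 0.555). A dimmer probe set (1454120_a_at) gave estimates of opposite sign, 0.43 in J1 and -0.40 in F1 (limma adjusted p = 0.239 and 0.173). Its signals in J1 were 88.7 and 127 in controls and 145 and 143 with Rif1 shRNA. In F1 they were 691 and 553 in controls and 480 and 474 in knockdown cells. The F1 value passed in 3 of 18 alternatives, among them the fit to the 4 F1 arrays (limma adjusted p = 0.0218). The difference of -0.83 did not pass (limma adjusted p = 0.0677). It passed in 4 of 17 alternatives, among them values as deposited (-0.74, limma adjusted p = 0.0351), and was -1.17 without J1 control replicate 2. Without that control array the J1 value was 0.77 (limma adjusted p = 0.0488). The third probe set (1432108_at) gave -0.03 and -0.08.

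Rnf2 encodes the main ubiquitin ligase of PRC1 in mouse ES cells, and Ring1 its paralog. At the brightest Rnf2 probe set (1424873_at) the signals were 2528 and 2526 in F1 controls and 2937 and 2790 in knockdown cells. Rnf2 rose by 0.18 on the log2 scale (SE 0.06, limma adjusted p = 0.0487), a 1.13-fold change that was lost in 11 of 18 alternatives. The omission of any single F1 array was among these (limma adjusted p = 0.109 to 0.395). A second bright probe set made from the same accession (1451519_at) gave 0.02 in F1 (limma adjusted p = 0.921), with overlapping arrays. The other 3 were dim, at 27.3 to 157, and gave -0.13 to -0.01. In J1 the 5 Rnf2 probe sets gave -0.09 to 0.08, with 0 past the limma threshold and 0 at an unadjusted p under 0.05. Ring1 had signals of 272 and 248 in F1 controls and of 252 and 223 in knockdown cells (log2 fold change -0.16, limma adjusted p = 0.599). In J1, 1 array stood apart, with 193 and 286 with Rif1 shRNA beside 206 and 176 in controls. The log2 fold change of 0.31 did not pass (limma adjusted p = 0.362) but was 0.59 without Rif1 shRNA replicate 1 (limma adjusted p = 0.0291).

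Wdr5 encodes a WD40-repeat adaptor shared by PRC1.6 and the methyltransferase complexes for histone H3. Its 2 probe sets, annotated to the same accession, disagreed. At 1448389_at the signals were 722 and 687 in F1 controls and 511 and 501 in knockdown cells, a log2 fold change of -0.49 (SE 0.08, limma adjusted p = 0.00219) that passed in 18 of 18 alternatives. At the brighter 1416581_at they were 2183 and 2313 in controls and 2288 and 2301 in knockdown cells. That log2 fold change was 0.003 (95% interval -0.15 to 0.15, limma adjusted p = 0.987), and the arrays overlapped. In J1 both gave 0.01. The F1 change at 1448389_at differed from the J1 change (difference -0.50, SE 0.12, limma adjusted p = 0.0238), the only one of 20 probe sets for which this test passed, and 6 of 17 alternatives lost it. Whether Wdr5 RNA fell therefore depends on the probe set.

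Genes for 5 further proteins found in PRC1.6 preparations were measured next, since they complete the complex. Yaf2, the paralog of Rybp, rose in F1 at both of its probe sets, by 0.53 and 0.41 on the log2 scale (limma adjusted p = 0.00132 and 0.0151). At the brighter one the signals were 291 and 300 in controls and 499 and 453 in knockdown cells. In J1 they were 335 and 353 in controls and 349 and 331 with Rif1 shRNA, and the difference between settings was 0.53 (limma adjusted p = 0.0169), which 6 of 17 alternatives lost. Hdac2, a histone deacetylase gene, rose in F1 by 0.37 (limma adjusted p = 0.00422) from 1885 and 1814 to 2473 and 2397, and 1 of its 2 other probe sets passed as well (0.33). Tfdp2, a second partner of E2F proteins, fell by 0.30 at its brightest probe set (limma adjusted p = 0.0366, lost in 7 of 18 alternatives). Of its 3 other probe sets 1 fell, by 0.75 (limma adjusted p = 0.000252), and the others gave -0.08 and -0.52. Hdac1 gave -0.005 and the heterochromatin protein gene Cbx3 -0.26 in F1 (limma adjusted p = 0.970 and 0.381). In J1, 0 of these 5 genes passed with limma, against 4.03% of all genes at their brightest probe set, and 1 had an unadjusted p under 0.05, against 19.8% of all genes.

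The wider Polycomb and partner families were compared by counts at the brightest probe set of each gene. Of all genes, 10.6% passed higher and 8.2% lower in F1, and 1.86% higher and 2.17% lower in J1. An unadjusted p under 0.05 was reached by 19.8% of all genes in J1. Among 15 other PRC1 genes 3 rose and 3 fell in F1 (median log2 fold change -0.13) and in J1 0 passed with limma, where 3 had an unadjusted p under 0.05. Cbx7, a reader of the Polycomb histone mark that is prominent in ES cells, fell most, by 0.77 (limma adjusted p = 2.15e-05), from 958 and 1021 to 570 and 595. Phc2 (0.62), Cbx2 (-0.35) and Auts2 (-0.40) also passed in F1. These 3 calls were lost when any single F1 array was left out (limma adjusted p = 0.0699 to 0.154, 0.101 to 0.163 and 0.074 to 0.29), and those of Cbx2 and Auts2 also with a replicate block. Among 11 PRC2 genes only Rbbp4 passed at its brightest probe set, with -0.19 in F1 (limma adjusted p = 0.00793, lost in 4 of 18 alternatives). Of 5 other Mtf2 probe sets 3 passed lower in F1, and of 4 other Aebp2 probe sets 1 did. In J1 0 of the 11 genes passed with limma, where 1 had an unadjusted p under 0.05. Among 8 genes whose proteins pair with MAX, 2 rose and 2 fell in F1. In J1 0 passed with limma and 1 had an unadjusted p under 0.05. Myc rose by 0.52 (limma adjusted p = 0.00652), from 322 and 268 to 480 and 460. Mxd4, an antagonist of MYC, rose by 0.62, while Mycn and Mnt fell by 0.36 and 0.26. The Mnt call was lost in 11 of 18 alternatives, among them the omission of any single F1 array (limma adjusted p = 0.0582 to 0.426), those of Myc and Mxd4 in 3 and 2, and that of Mycn in 0. Another tested Mycn probe set passed in the opposite direction to the brightest.

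Among 10 E2F and pocket protein genes 0 passed in F1 with limma, against 18.8% of all genes. An unadjusted p under 0.05 was reached by 1, against 31.6% of all genes. E2f8 and Rbl2 fell in J1 by 0.32 and 0.55 (limma adjusted p = 0.0266 and 0.0421), where 2.17% of all genes fell. Neither passed in the fit to the 4 J1 arrays (limma adjusted p = 0.164 and 0.163), and 10 of 18 and 12 of 17 alternatives lost the calls. Among 9 genes for WDR5 partners in histone H3 methylation 3 fell and 0 rose in F1, against 8.2% and 10.6% of all genes. These were Ash2l (-0.35), Kmt2b (-0.33) and Kmt2c (-0.52), with limma adjusted p of 0.00100, 0.0136 and 0.0241. Kmt2b and Kmt2c were each lost in 4 of 18 alternatives, and Ash2l in 0. In J1, Setd1b alone fell, by 0.56 (limma adjusted p = 0.0172, and 0.0643 with the 4 J1 arrays).

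**Figure D3:**
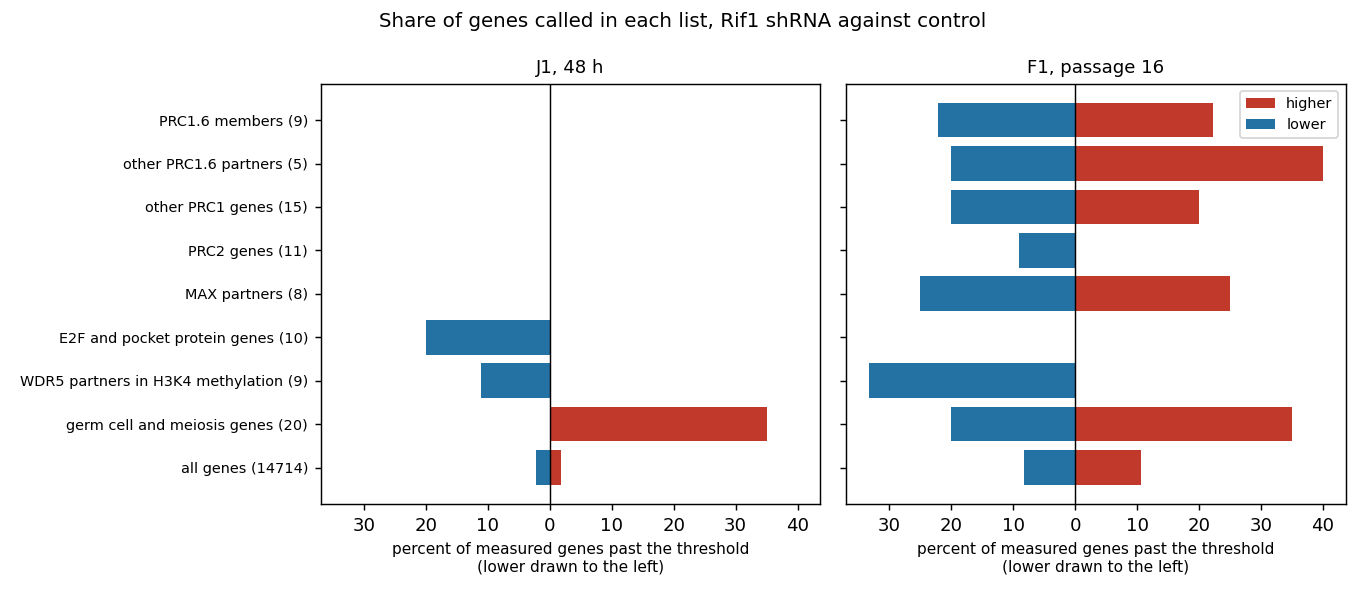
Percent of measured genes past an adjusted p under 0.05 in each list, higher to the right and lower to the left, for J1 at 48 h and F1 at passage 16, with the number of genes in brackets and all 14714 genes in the last row. Bars for the subunits are absent in J1 and stand at 2 of 9 genes each way in F1. The germ cell list shows 7 of 20 higher in J1, and 7 higher and 4 lower in F1.

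Germ cell and meiosis genes, a class that PRC1.6 is known to silence, were then set beside the subunits. Whether each gene of the list is a target of the complex was not checked. The list of 26 germ cell and meiosis genes was drawn from background knowledge, with rises of Dazl and Slc25a31 in these data already known, so its counts are a description. Of the 20 measured, 7 rose and 0 fell in J1, against 1.86% and 2.17% of all genes, with a median log2 fold change of 0.33 beside 0.006 for all genes. With the 4 J1 arrays alone 5 rose and 0 fell, against 0.612% and 0.537%. In F1, 7 rose and 4 fell, against 10.6% and 8.2%, with a median of 0.12 beside -0.02. With the 4 F1 arrays alone 10 rose and 4 fell, against 16% and 14.5%. Of the 20, 5 rose in both settings, and Sycp3 rose in J1 and fell in F1.

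Dazl, an RNA-binding protein gene of germ cells, had signals of 54.2 and 57.4 in J1 controls and of 151 and 135 with Rif1 shRNA. It rose by 1.32 on the log2 scale (SE 0.12, limma adjusted p = 0.000320). In F1 it went from 211 and 248 to 1153 and 1177, a rise of 2.06 (limma adjusted p = 1.07e-06). Slc25a31, the germ line ADP/ATP carrier gene, went from 118 and 124 to 256 and 282 in J1 and from 111 and 103 to 374 and 350 in F1. It rose by 1.20 and 1.33 on the log2 scale (limma adjusted p = 0.000266 and 1.02e-05). The difference of 0.13 (95% interval -0.19 to 0.45) did not pass (limma adjusted p = 0.673). Mael, a gene of the piRNA pathway, rose by 0.94 and 0.57, and Sohlh2, a germ cell transcription factor gene, by 0.61 and 0.57. All 4 passed in 18 of 18 alternatives in each setting.

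Other genes of the list went down in F1. Hsf2bp, a meiotic recombination gene, fell by 1.90 (limma adjusted p = 2.73e-07), from 699 and 778 to 165 and 160. Hormad1, a meiotic chromosome axis gene, fell by 1.71 (limma adjusted p = 1.59e-06), from 393 and 397 to 89.5 and 88.4. In J1 the 2 genes gave 0.14 and 0.004 (limma adjusted p = 0.447 and 0.991). Sycp3, a component of the synaptonemal complex, fell by 0.88 in F1 (limma adjusted p = 5.78e-05), from 652 and 589 to 336 and 317. In J1 it rose by 0.45 (limma adjusted p = 0.0215), from 652 and 580 to 811 and 864, and this call was lost in 5 of 18 alternatives.

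**Figure D4:**
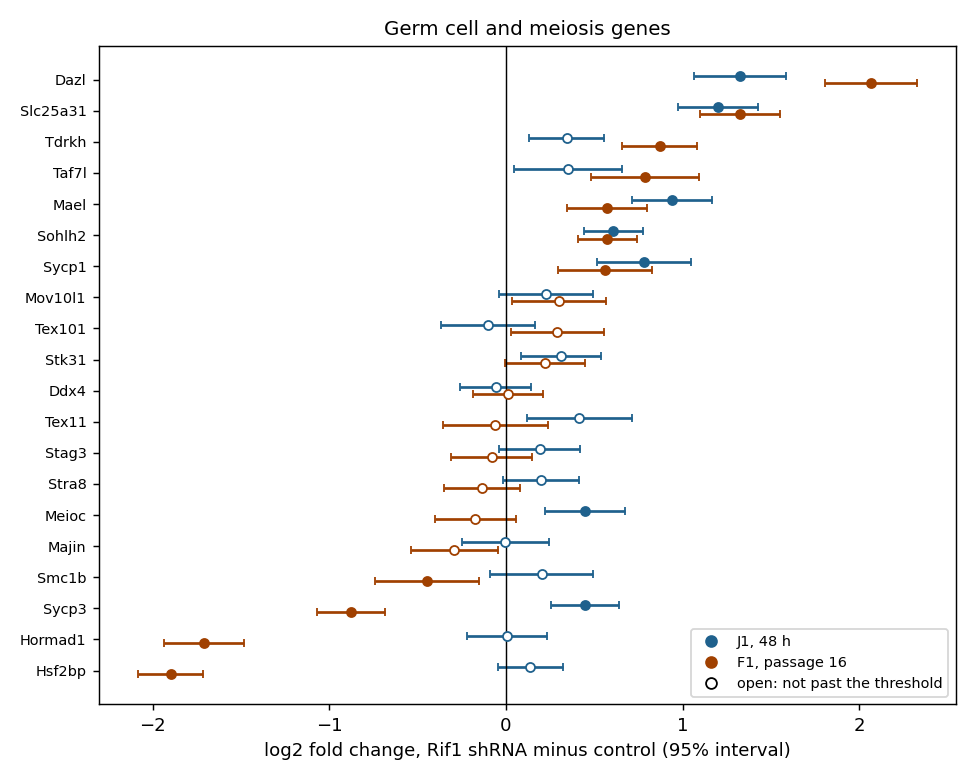
Log2 fold change with its 95% interval for the 20 measured germ cell and meiosis genes, ordered by the F1 value, in J1 (blue) and F1 (brown), with filled points past an adjusted p under 0.05. Dazl and Slc25a31 lie furthest to the right in both settings, and Hsf2bp and Hormad1 lie near 0 in J1 and at -1.90 and -1.71 in F1.

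Promoters of 4 of these genes are shown because MGA with MAX and E2F6 with TFDP1 read E-boxes and E2F sites. They include genes that rose in both settings and genes that fell in F1. All 4 hold an E-box, which not every gene named above does. The 250 bases before each annotated start were taken from RefSeq, with E-box and E2F matches in capitals.
Slc25a31 (GRCm38.p6, chr3:40708621-40708870, plus strand): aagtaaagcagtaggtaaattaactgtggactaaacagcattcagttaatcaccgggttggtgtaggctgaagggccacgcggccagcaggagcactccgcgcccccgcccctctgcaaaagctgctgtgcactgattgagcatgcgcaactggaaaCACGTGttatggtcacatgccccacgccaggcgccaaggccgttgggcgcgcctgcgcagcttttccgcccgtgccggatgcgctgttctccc
Mael (GRCm38.p6, chr1:166238745-166238994, minus strand): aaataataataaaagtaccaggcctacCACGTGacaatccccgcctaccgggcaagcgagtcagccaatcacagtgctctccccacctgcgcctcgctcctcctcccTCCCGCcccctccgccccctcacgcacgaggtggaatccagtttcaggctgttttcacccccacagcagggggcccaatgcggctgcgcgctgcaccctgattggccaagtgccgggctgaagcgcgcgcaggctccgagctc
Hormad1 (GRCm38.p6, chr3:95559427-95559676, plus strand): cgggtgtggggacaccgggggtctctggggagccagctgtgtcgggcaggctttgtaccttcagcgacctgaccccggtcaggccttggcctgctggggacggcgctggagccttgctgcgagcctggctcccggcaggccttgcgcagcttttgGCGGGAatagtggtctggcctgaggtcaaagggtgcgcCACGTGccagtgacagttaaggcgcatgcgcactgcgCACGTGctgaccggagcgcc
Sycp3 (GRCm38.p6, chr10:88459337-88459586, plus strand): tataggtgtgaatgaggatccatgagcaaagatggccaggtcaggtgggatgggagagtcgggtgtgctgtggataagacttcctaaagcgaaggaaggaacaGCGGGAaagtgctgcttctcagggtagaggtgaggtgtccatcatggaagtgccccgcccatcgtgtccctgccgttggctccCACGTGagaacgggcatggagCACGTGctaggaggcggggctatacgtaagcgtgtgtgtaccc
Slc25a31 and Mael, which rose, held 1 E-box each, 93 and 223 bases before the start, and Mael also 1 E2F match. Hormad1 and Sycp3, which fell in F1, held 2 E-boxes and 1 E2F match each. No E-box overlapped an E2F match in the promoters shown. Of the other genes named above, Dazl and Sohlh2, which rose, held neither motif in this window. Hsf2bp, which fell in F1, held 1 E2F match and 0 E-boxes. This says nothing about binding.

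A promoter was listed for 24 genes of the list, of which 13 held an E-box and 10 an E2F match, that is 54.2% and 41.7%, against 6.05% and 16.9% of all 27025 genes. The list was drawn from genes tied to PRC1.6 and the germ line, so this share is not independent of how it was chosen. Whether an E-box goes with a direction was not tested. Of 10 measured genes with one, 4 rose and 0 fell in J1, and 4 rose and 2 fell in F1. Of 8 measured genes without one, 3 rose and 0 fell in J1, and 3 rose and 2 fell in F1. Measured genes with no listed promoter were left out of these counts. Of all genes, 1.86% rose and 2.17% fell in J1, and 10.6% rose and 8.2% fell in F1.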

How the data were processed

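The deposited values are linear signal intensities, 1 for each probe set on each array, which the authors made with MAS5, per the submitters' processing notes. The MAS5 version is not stated there. The table has 45101 probe sets, 64 of them controls, on 8 arrays. The 2% trimmed mean was 193 to 197 on J1 and 301 to 309 on F1 arrays, so log2(signal + 18), 18 being the 10th percentile of all values, was quantile normalized across all arrays. Probe sets above the 40th percentile on at least 2 arrays were kept (31605). No replicate pair was identical (correlations 0.992 to 0.997).

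Group means were fitted with limma 3.58.1 in R 4.3.3 (eBayes with an intensity trend, 4 residual and 6.94 prior degrees of freedom), two-sided, with Benjamini-Hochberg adjustment over all kept probe sets. On data simulated with the spread of each setting, false calls exceeded the nominal rate for J1 in the 8-array fit and for both settings in fits to 4 arrays. The shared spread is lenient for J1, whose median residual SD was 0.115 against 0.0658 in F1, so fits to the 4 arrays of a setting are given beside it. For F1 the 4-array fit is not a stricter check, since it called 25.7% of all probe sets, against 15.1% with all 8 arrays. A gene stands at its brightest kept probe set by the mean over all arrays. Of each list the text names up to 4 genes past the threshold with the smallest p per comparison, and every subunit and PRC1.6 partner. The members and lists were chosen with earlier results of these data known. Symbols came from the platform annotation: 34945 probe sets had 1, 932 several and 9160 none. Of those with 1 symbol, 34884 matched RefSeq GRCm38.p6. Plots were made in Python 3.11.15 (matplotlib 3.10.9). Alternatives were other offsets, scalings, filters, spreads, blocks and each array left out.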

Additional observations from a re-analysis of the deposited data

Results flagged for a closer look

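The F1 effect minus the J1 effect passed (limma adjusted p under 0.05) for 10.6% of all genes at their brightest probe set. Values on the log2 scale are given for subunit and Rif1 probe sets and for listed genes at their brightest probe set. Of each list, up to 4 genes with the smallest p are named. No explanation was tested. Among subunit genes the difference was -0.50 for Wdr5 at 1448389_at (limma adjusted p = 0.0238). For Rif1 itself it was -0.66 and -0.82 at 2 of 4 probe sets (limma adjusted p = 0.00454 and 0.00769). Among partners it was 0.53 for Yaf2 (limma adjusted p = 0.0169). A dimmer Tfdp2 probe set (1443962_at) also passed, at -0.73 (limma adjusted p = 0.00581). Among other PRC1 genes it was 0.80 for Bmi1, -0.50 for Cbx2 and -0.60 for Cbx7 (limma adjusted p = 0.00829, 0.0389 and 0.00296). Bmi1 had -0.45 in J1 and 0.35 in F1 (limma adjusted p = 0.0506 and 0.0491). Among MAX partners it was 0.74 for Myc and 0.63 for Mxd4 (limma adjusted p = 0.0111 and 0.0437). Among WDR5 partners it was -0.43 for Ash2l and 0.74 for Setd1b (limma adjusted p = 0.00432 and 0.0105). Among germ cell genes 6 of 20 passed, and the 4 with the smallest p are given. The difference was 0.74 for Dazl, -1.32 for Sycp3, -1.71 for Hormad1 and -2.03 for Hsf2bp (limma adjusted p = 0.0191, 0.000113, 6.57e-05 and 7.18e-06). Of 17 alternatives, the difference was lost in 10 for Cbx2, in 9 for Mxd4, in 6 each for Wdr5, Yaf2 and Dazl, in 3 for Myc, in 2 each for Bmi1 and Setd1b and in 1 for Ash2l. It was lost in 0 for Cbx7, Sycp3, Hormad1, Hsf2bp and both Rif1 probe sets. Groups of 2 arrays are too small to test for an outlying array.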

How the results depend on the processing

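There were 18 alternatives, or 17 for the difference between settings. Of 1051 values of the 20 subunit probe sets, 995 stayed on the same side of the threshold. Most of these were past it in neither fit, since the main fit called 5 values in F1, 1 difference and 0 values in J1. A call was lost in 29 values and gained in 27, and 0 called values changed sign. The count of subunit probe sets past the threshold in J1 was 0 and ranged from 0 to 1 as each array was left out. In F1 it was 5, and 3 with no offset, with no filter on dim probe sets, with no intensity trend, with a replicate block and with a crossed replicate block, 9 with only the 4 arrays of the setting, and 3 to 6 as each array was left out. The 3 that stayed were Mga, E2f6 and 1 Wdr5 probe set. For the difference it was 1, and 4 with values as deposited, 3 with normalization within each setting, 3 when the filter was raised to the 60th percentile, 0 with a replicate block, 2 with a crossed replicate block, and 0 to 3 as each array was left out. The count over all probe sets ranged from 229 to 1763 in J1 (main 1004), from 1856 to 8127 in F1 (main 4768) and from 1014 to 3995 for the difference (main 2644). The germ cell count was 5 to 8 in J1 (main 7), 9 to 14 in F1 (main 11) and 3 to 9 for the difference (main 6). The deviations of same-numbered arrays correlated at -0.34 in J1 and 0.19 in F1, so the replicate numbers were not taken to pair arrays, and the crossed replicate block was added after the data were seen. Where an array was left out, the lone array of its group is assumed to vary like the others. The causes of these changes were not tested. The number of arrays and dim signals limit what small changes can be seen.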

Other observations

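Control arrays of F1 and J1 also differed for the PRC1.6 genes, as a description with no test, since cell line, strain, culture and array scale cannot be told apart. On the normalized log2 scale the F1 control mean minus the J1 control mean ran from -0.80 at a dim Rnf2 probe set (1448041_at) to 1.83 at Pcgf6 1454120_a_at, while 5% of all kept probe sets lay below -1.23 and 5% above 1.29. Of the 20 probe sets 10 were higher in F1 controls on this scale but 17 on the deposited scale, where Mga 1434746_at (0.68) and E2f6 1448835_at (0.31) turned from -0.08 and -0.42, so the direction depends on scaling. Probe sets of 1 gene gave different gaps. For Pcgf6 they were 0.45, 0.99 and 1.83, each higher in F1 on both scales. For Mga they were -0.08, -0.07, 0.86 and 1.43. For Rnf2 they ran from -0.80 to 0.98. For Wdr5 they were 0.30 and 0.90, the larger one at the probe set that also fell in the F1 knockdown.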
